A study of Mus musculus with 77 samples.

Results

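Mitochondrially encoded transcripts are described here: the 9 genes of the mitochondrial chromosome that had a row under their own symbol in both messenger RNA tables of the series. They comprised 7 messenger RNAs (mt-Nd1, mt-Nd2, mt-Nd4, mt-Nd5, mt-Nd6, mt-Co1 and mt-Cytb) and both ribosomal RNAs (mt-Rnr1 and mt-Rnr2), 9 of the 16587 genes in the table of the BNST (bed nucleus of the stria terminalis, a forebrain relay for sustained anxiety) and 9 of the 13084 genes in the blood table. The rule used the name and the presence of a row, and no measured difference.

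The samples came from male mice aged 8 weeks at dissection, of the inbred strains C57BL/6Crl (B6) and DBA/2Crl (D2). These are the names in the labels, and the study writes C57BL/6NCrl and DBA/2NCrl. The mice were studied after 10 days of chronic social defeat stress (CSDS). In it, a mouse is defeated daily by a larger CD-1 aggressor and then lives behind a perforated divider from it. Control mice were housed across such a divider from another mouse without fights. Defeated mice were called susceptible where they avoided an unfamiliar mouse in a social avoidance test and resilient where they did not, and tissue was taken 6 to 8 days after the last defeat. For sequencing, the study picked defeated mice from both extremes of the social avoidance test and controls near the control mean. The groups are therefore not all susceptible, resilient or control mice. From the BNST, RNA bound to AGO2 (the protein that holds microRNAs and their targets) was precipitated and its poly(A) RNA sequenced from 14 pools of 3 BNST each: 5 pools of B6 control, 5 of B6 resilient and 4 of B6 susceptible mice. From trunk blood, total RNA of 25 samples was sequenced after depletion of ribosomal and globin RNA. There were 5 samples each of B6 control, B6 resilient, B6 susceptible, D2 control and D2 susceptible mice. Groups of defeated mice were formed by behavior after the defeats, so a difference between susceptible and resilient mice can precede the stress or follow it.

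Mitochondria keep a small circular genome of their own. Transcription runs around the whole circle from each strand, and the long products are then cut into ribosomal RNAs, transfer RNAs and messenger RNAs, so neighboring genes start out in the same precursor, and their final levels also depend on how fast each piece is processed and decays. The proteins it encodes are core subunits of the respiratory chain: Nd1, Nd2, Nd4, Nd5 and Nd6 belong to complex I, cytochrome b to complex III, and Co1 is the catalytic subunit of complex IV. mt-Rnr1 and mt-Rnr2 are the small and large ribosomal RNAs of the ribosome that translates them, and all further proteins for transcription, processing and assembly are imported from nuclear genes.

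The 9 members lay at scattered positions of the 37 genes on chromosome M of mouse build GRCm38 (13 protein-coding, 2 ribosomal and 22 transfer RNA genes). mt-Rnr1 (chrM:70-1024), mt-Rnr2 (chrM:1094-2675), mt-Nd1 (chrM:2751-3707), mt-Nd2 (chrM:3914-4951), mt-Co1 (chrM:5328-6872), mt-Nd4 (chrM:10167-11544), mt-Nd5 (chrM:11742-13565) and mt-Cytb (chrM:14145-15288) are read from the plus strand. mt-Nd6 (chrM:13552-14070) is the only member read from the minus strand. Each is a single exon without introns.

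The gap between mt-Co1 and mt-Nd4 in this list was the stretch that the mouse nuclear genome repeats. The 6 protein-coding genes without a row in either table, mt-Co2, mt-Co3, mt-Atp6, mt-Atp8, mt-Nd3 and mt-Nd4l, had an identical nuclear copy for 98.9 to 100% of all windows of the read length (84 bases in BNST, 75 in blood). The longest nuclear copy was 4654 bp at chr1:24611535-24616188, 99.94% identical to chrM:6390-11042. It begins inside mt-Co1 and ends inside mt-Nd4. The 30 bases around each boundary of this copy are printed here with the copied side in capitals.
mt-Co1, chrM:6375-6404: gttggtggtctaaccGGAATTGTTTTATCC
mt-Nd4, chrM:11028-11057: TACTCCTCAGTTAGCcacatagcacttgtt
A further copy of 3260 bp on chromosome 2, 97.36% identical to chrM:4441-7699, spans all of mt-Co1. Windows of mt-Co1 upstream of the printed boundary can therefore have a nuclear match too. Over all copies, 61.2% of the windows of mt-Nd4 and 35.8% of those of mt-Co1 had an identical match at 84 bases. At 75 bases the shares were 61.5% and 39.8%. For the other 7 members the share lay between 0 and 5.71%. How reads with more than 1 match were counted is not given in the sources used here. The counts of mt-Nd4 and mt-Co1 may thus cover only the part of the gene outside nuclear copies. Of 10 listed nuclear copies of mitochondrial DNA, 2 had a row in the blood table, Gm28438 with 3 to 34 reads and Gm13340 with 5 to 20 reads a library, and none in BNST.

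**Figure D1:**
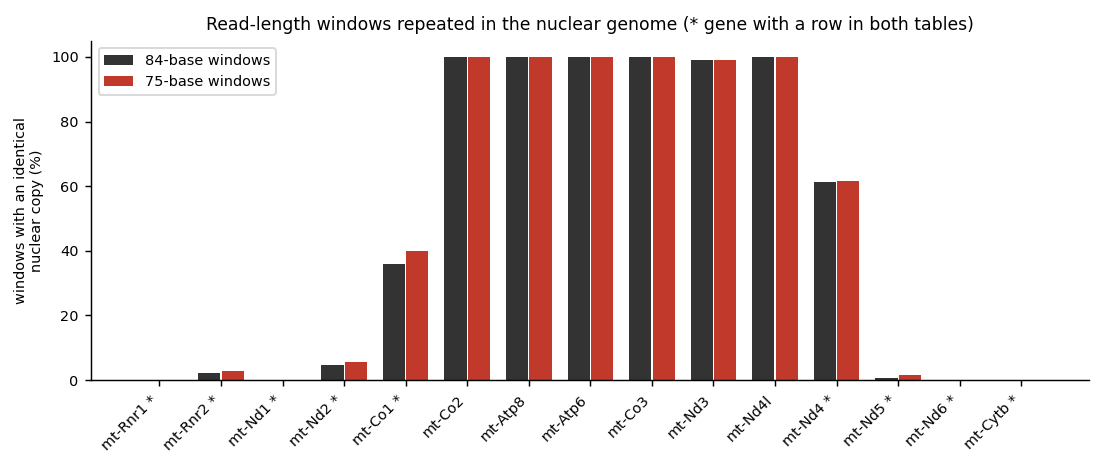
Share of read-length windows (y axis, percent) of each mitochondrial protein-coding and ribosomal RNA gene (x axis, in genome order) with an identical copy in the nuclear genome, for windows of 84 and 75 bases; an asterisk marks genes with a row in both tables. The 6 genes without a row stand at 98.9 to 100%, while mt-Nd4 stands at 61.2 and 61.5% and mt-Co1 at 35.8 and 39.8%.

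Further stretches limit what the count of a gene can mean. mt-Nd5 and mt-Nd6 are read toward each other and share 14 bases, shown in capitals at the 3′ end of each transcript.
mt-Nd5, chrM:13536-13565, plus strand: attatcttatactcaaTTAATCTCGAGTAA
mt-Nd6, chrM:13552-13581, minus strand: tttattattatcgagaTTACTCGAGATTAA
The libraries of both tissues kept strand, but the strand setting used for counting is not given in the sources used here, so reads of mt-Nd6 and of precursor RNA running antisense to it cannot be told apart. mt-Nd4 and mt-Cytb end, in the annotated genome sequence, on the T that opens a stop codon, and the poly(A) tail supplies the remaining bases of that codon, as is known for several mitochondrial messenger RNAs. The last 30 bases of each are shown with that T in capitals.
mt-Nd4, chrM:11515-11544: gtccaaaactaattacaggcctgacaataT
mt-Cytb, chrM:15259-15288: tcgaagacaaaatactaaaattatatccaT
The minus-strand member also differed from the others in composition: mt-Nd6 was 28.1% G and 5.97% C, whereas mt-Nd5 was 9.98% G and 27.1% C. Its longest run of A was 3 bases. The longest runs in mt-Nd2 and mt-Nd5 were 8 and 7 bases.

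The values were log2 CPM, the log2 of a gene's reads scaled to the library size, and whole reads could be recovered from them. The libraries held 3701281 to 10659882 reads in BNST and 9751603 to 15878495 in blood. Each member had at least 388 reads in every BNST pool and at least 75 in every blood library, so counting error was small beside the spread between samples. Labels and file disagreed on 2 blood libraries: D2 susceptible 2 carries the name of a control in its data column, and D2 control 2 the name of a susceptible sample. The groups below follow the labels, and D2 results are also given with both libraries moved and with both left out. A comparison that pools all D2 stress groups is not touched by this. In BNST all 7 neuronal markers had reads in every pool, and in blood all erythroid and platelet markers in every library. The labels do not say that the samples of a group came from separate mice, and the p-values measure only the spread between these pools and samples, which may be technical.

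Mitochondrial transcripts took 0.831 to 2.22% of the reads in BNST pools (median 1.73%) and 7.11 to 12.15% in blood libraries (median 8.70%). Exact (Clopper-Pearson) 95% binomial intervals, which cover counting error only, were narrow: 0.825 to 0.838% for the lowest BNST pool and 12.13 to 12.17% for the highest blood library. In BNST the shares were 1.72, 2.16, 1.499, 1.30 and 1.345% in control pools 1 to 5, 1.73, 2.01, 2.01, 1.73 and 2.20% in resilient pools 1 to 5, and 1.79, 0.831, 1.24 and 2.22% in susceptible pools 1 to 4. The susceptible pools thus held both the lowest and the highest share. In blood a single gene made up most of the total, since mt-Rnr2 took a median of 7.82% of all reads and the 7 messenger RNAs together 0.350 to 1.25%. The messenger RNAs took 0.156 to 0.330% of reads in BNST. Whether the depletion of ribosomal RNA in blood also acts on mitochondrial ribosomal RNA is not given in the sources used here. In bulk tissue, fewer cells of a type and less RNA per cell cannot be told apart.

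Per length, the ribosomal RNAs stood above the messenger RNAs in the medians of both tissues, but the order within each class differed between tissues. In RPKM (CPM per kilobase of transcript, here on recovered reads), the medians over 14 BNST pools were 7555 for mt-Rnr1 and 4689 for mt-Rnr2, and mt-Rnr1 was higher in 14 of 14 pools. Next came mt-Nd2 (579), mt-Cytb (445), mt-Nd4 (309), mt-Nd1 (300), mt-Nd5 (264), mt-Co1 (237) and mt-Nd6 (195), with mt-Nd2 above mt-Cytb in 13 and mt-Cytb above mt-Nd4 in 14 of 14 pools. The pairs mt-Nd4 and mt-Nd1, and mt-Nd5 and mt-Co1, kept their order in only 8 of 14 pools each, so those neighbors were not separated beyond their spread.

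In blood the medians over 25 libraries were 49410 RPKM for mt-Rnr2 and 4109 for mt-Rnr1, and mt-Rnr2 was higher in all 25. Among the messenger RNAs, mt-Co1 led (2567), followed by mt-Nd1 (645), mt-Cytb (435), mt-Nd4 (112), mt-Nd2 (87.1), mt-Nd5 (46.2) and mt-Nd6 (31.8). mt-Co1 was above mt-Nd1, mt-Nd1 above mt-Cytb, mt-Cytb above mt-Nd4 and mt-Nd2 above mt-Nd5 in 25 of 25 libraries each, while mt-Rnr1 over mt-Co1, mt-Nd4 over mt-Nd2 and mt-Nd5 over mt-Nd6 held in 20 of 25 each. The ranks that changed most were those of mt-Co1 and mt-Nd2: mt-Co1 moved from the eighth place in BNST to the third in blood, and mt-Nd2 from the third to the seventh. When reads were divided by the number of windows without a nuclear copy, the median of mt-Co1 in blood (4481, on the RPKM scale with copy-free windows as length) reached that of mt-Rnr1 (4455), and mt-Nd4 became the highest messenger RNA in BNST (848, against 661 for mt-Nd2). The median of mt-Co1 in BNST (390) then stood above those of mt-Nd1 (328) and mt-Nd5 (279), so its low place there depends on the length used. The tables were normalized separately, and tissue, AGO2 precipitation, poly(A) selection against ribosomal depletion, and read length cannot be told apart, so no test was made between them. No unprecipitated BNST library was analysed here, and the levels therefore do not measure binding to AGO2.

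Ratios between members need no library size, and they showed the same contrast. The mt-Rnr2 to mt-Rnr1 ratio per length was 0.415 to 0.811 in BNST pools and 8.59 to 13.51 in blood. The mt-Co1 to mt-Nd2 ratio was 0.311 to 0.680 in BNST and 14.03 to 60.5 in blood.

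The BNST comparison between susceptible and control pools asked whether mitochondrial transcripts in the AGO2-bound fraction differed after defeat that left mice avoidant. By the call rule of an unadjusted p under 0.05 with a fold change of at least 1.2, 3 of the 9 members were lower in susceptible pools and none higher, all of them complex I messenger RNAs: mt-Nd5, mt-Nd4 and mt-Nd2. Over all genes tested, 18.9% were called in this comparison, so 3 of 9 stands on a wide background, and no member had an adjusted p under 0.05. The median of the members was a log2 difference of -0.33 against -0.01 over all genes, and 8 of 9 members were negative.

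mt-Nd5, the longest member with 1824 bases and a membrane subunit of complex I, gave the clearest difference. Its log2 CPM was 9.02, 9.17, 9.02, 9.07 and 8.79 in control pools 1 to 5 and 8.75, 7.98, 8.29 and 8.80 in susceptible pools 1 to 4. All 4 susceptible pools lay below the control mean of 9.01, but susceptible pool 4 lay just above control pool 5, so the groups overlapped. The log2 difference was -0.56 (SE 0.16, limma p = 0.00303, adjusted p = 0.0605), a level 0.679 times that of controls, and the two-sided exact permutation test gave p = 0.0159, where 0.00794 was the smallest possible. mt-Nd5 passed the call rule with any single pool left out and under every alternative tried.

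mt-Nd4, another complex I membrane subunit, read 8.91, 9.12, 8.77, 8.77 and 8.61 in control pools and 8.71, 7.66, 8.17 and 8.84 in susceptible pools. Susceptible pools 2 and 3 were below every control pool, whereas pools 1 and 4 lay within the control range. The log2 difference was -0.49 (SE 0.20, limma p = 0.0235, adjusted p = 0.165, exact permutation p = 0.103). In comparison, mt-Nd2 read 9.31, 9.66, 9.25, 9.26 and 9.16 in control pools and 9.24, 7.99, 8.54 and 9.39 in susceptible pools, with the same pools 2 and 3 low. Its log2 difference was -0.54 (SE 0.25, limma p = 0.0458, adjusted p = 0.226, exact permutation p = 0.127).

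The members that did not pass were mt-Nd6 with a log2 difference of -0.59 (SE 0.32), mt-Cytb with -0.33 (SE 0.17), mt-Rnr2 with -0.28 (SE 0.24), mt-Nd1 with -0.16 (SE 0.15), mt-Rnr1 with -0.11 (SE 0.29) and mt-Co1 with 0.03 (SE 0.14). Their 95% intervals reached from -1.26 to 0.09 for mt-Nd6 and from -0.26 to 0.33 for mt-Co1. Susceptible pool 2 had the lowest value of all 14 pools for all 9 members, and its mt-Rnr1 of 11.60 compares with 13.44 in susceptible pool 4, the highest but 1 of all pools. With susceptible pool 2, susceptible pool 3 or control pool 2 left out in turn, only mt-Nd5 was called, and without susceptible pool 4 there were 5 calls, with mt-Nd6 and mt-Cytb added.

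Other measures moved along with these values. Susceptible pools 2 and 3 had the highest ratios of the authors' effective library size to the recovered reads (1.08 and 1.06, against 0.912 to 1.03 in the others), which lowers every CPM value of those pools. With recovered reads as library size instead, 2 of the 3 calls (mt-Nd5 and mt-Nd4) passed, and mt-Nd2 had a log2 difference of -0.47 without passing. Marker genes of neurons were called lower for 4 of 7 (Rbfox3, Snap25, Syt1 and Slc32a1), with a summed level of 1678 to 2076 CPM in susceptible and 2111 to 2282 in control pools. The 5 choroid plexus markers, of which 2 were at 0 in some library, summed to 12.8 to 61.2 CPM in susceptible and 32.8 to 180.7 in control pools, with 4 called lower. Astrocyte markers had 1 called higher and 2 lower, and summed to 1108 to 1329 CPM in susceptible and 1374 to 1597 in control pools. Oligodendrocyte and microglia markers had 1 called each way, and endothelial markers 1 lower. Oligodendrocyte markers summed to 2174 to 3515 CPM in susceptible and 3359 to 5014 in control pools. Microglia markers summed to 92.4 to 133.4 against 97.1 to 122.3 CPM, and endothelial markers to 75.3 to 101.9 against 98.0 to 126.3 CPM. These marker counts stand beside the 18.9% of all genes called in this comparison. The part of cell composition and library scaling in the member differences was not tested.

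Susceptible against resilient pools asked what separated mice that reacted differently to the same defeats. Here 4 of 9 members were called lower in susceptible pools, mt-Nd5, mt-Nd4, mt-Rnr2 and mt-Cytb, where 2.14% of all genes were called, and all 9 were negative with a median log2 difference of -0.49. Every adjusted p was 0.9999. This comparison shares its susceptible pools with the one above.

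mt-Rnr2, the large ribosomal RNA, read 12.79, 12.94, 13.29, 12.89 and 13.17 in resilient pools 1 to 5 and 12.84, 11.63, 12.34 and 12.90 in susceptible pools 1 to 4. The groups overlapped in the range from 12.79 to 12.90. The log2 difference was -0.59 (SE 0.24, limma p = 0.0237, exact permutation p = 0.0476). For mt-Nd5, the log2 CPM was 9.03, 9.15, 8.61, 8.60 and 9.13 in resilient pools, with pools 3 and 4 lower than the rest, and the difference was -0.45 (SE 0.16, limma p = 0.0129, exact permutation p = 0.0873). The second complex I member, mt-Nd4, with resilient values of 8.92, 9.08, 8.57, 8.55 and 9.17, differed by -0.51 (SE 0.20, limma p = 0.0197, exact permutation p = 0.111). Cytochrome b of complex III, mt-Cytb, with 9.02, 9.05, 9.03, 8.68 and 9.34 against 8.98, 8.07, 8.43 and 9.06, differed by -0.39 (SE 0.17, limma p = 0.0371, exact permutation p = 0.159).

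The number called depended on single pools: none without susceptible pool 2, 1 without susceptible pool 3, 2 without resilient pool 5, 7 without susceptible pool 1 and 8 without susceptible pool 4. The calls thus rested mainly on susceptible pools 2 and 3. With all deposited values quantile-normalized, only mt-Nd5 and mt-Nd4 were called.

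In resilient against control pools none of the 9 members was called or had an unadjusted p under 0.05 in limma, where 17.7% of all genes were called. The members' median log2 difference was 0.06, and 7 of 9 were positive. The ribosomal RNAs were the farthest from 0, with 0.38 (SE 0.27) for mt-Rnr1 and 0.31 (SE 0.22) for mt-Rnr2, and all 5 resilient pools lay above the control mean for both. With quantile-normalized values mt-Rnr1 was called, at 0.27. The messenger RNAs lay between -0.11 for mt-Nd5 and 0.17 for mt-Co1.

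**Figure D2:**
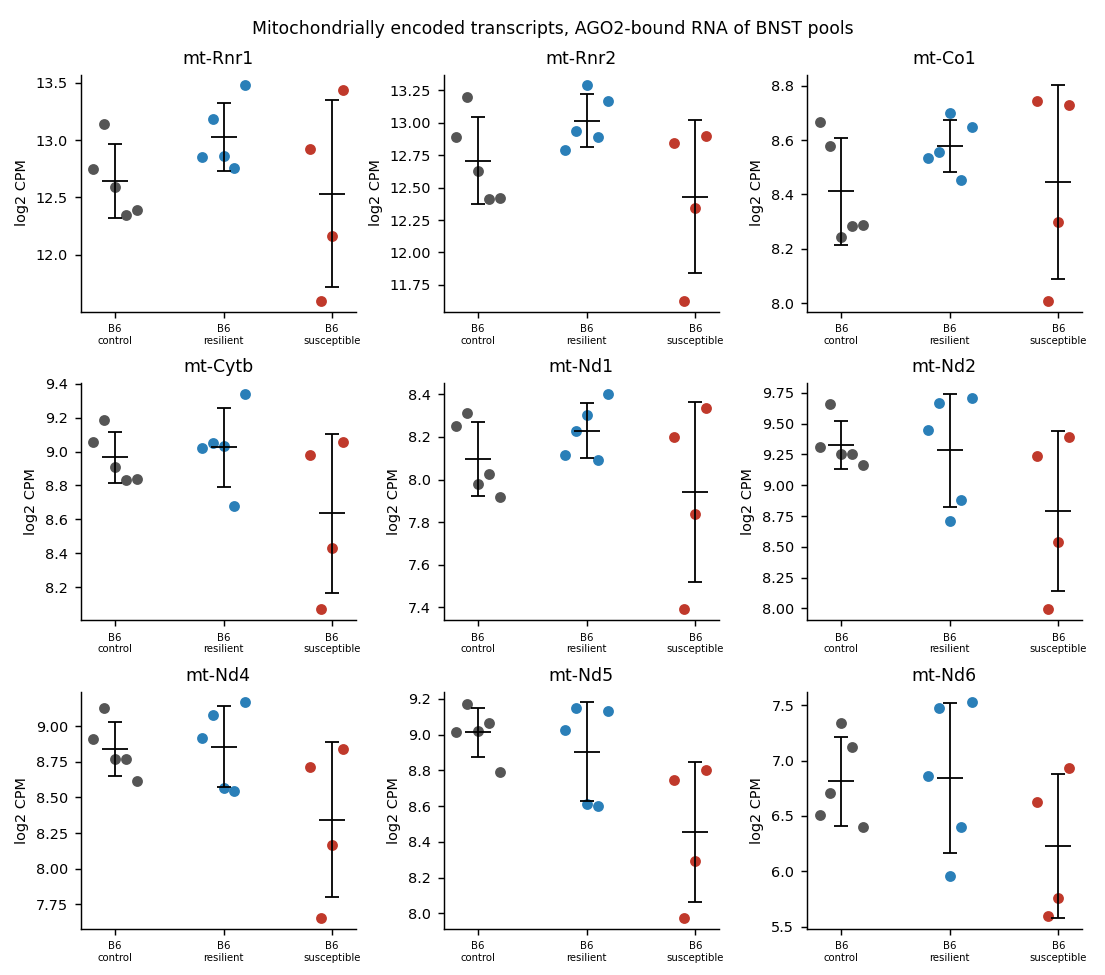
Log2 CPM (y axes) of the 9 mitochondrially encoded transcripts in AGO2-bound RNA of 5 B6 control, 5 B6 resilient and 4 B6 susceptible BNST pools (x axes); points are pools, and bars give the mean and 1 SD. Susceptible pool 2 is the lowest pool in each panel, and the groups overlap in each panel.

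The members did not move by the same amount, and some ratios between them differed between susceptible and control pools. Ratios were compared for 6 pairs or sets of members in 9 comparisons, 54 exact permutation tests in all, chosen after the values had been seen. Per length, mt-Nd4 over mt-Nd1 was 1.10, 1.22, 1.2, 1.16 and 1.13 in control pools 1 to 5 and 0.993, 0.835, 0.871 and 0.986 in susceptible pools 1 to 4. No susceptible pool reached the lowest control pool. The ratio of the group means was 0.791 (exact permutation p = 0.00794, the smallest possible, adjusted to 0.107 over the 54 tests), and leaving out any single pool gave 0.771 to 0.817. The resilient pools read 1.21, 1.25, 0.835, 0.952 and 1.18 and spanned both other groups. Resilient pool 3 and susceptible pools 2 and 3 had the lowest ratios and also the most reads (10659882, 7445499 and 7604641). The part of library depth in these ratios was not tested. Susceptible pools 1 and 4, whose log2 CPM of mt-Nd4 lay within the control range, also had ratios below every control pool.

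mt-Nd1 over mt-Nd2 was 0.425 to 0.520 in control and 0.521 to 0.715 in susceptible pools, a mean ratio of 1.30 (exact permutation p = 0.0159, adjusted p = 0.161), with the lowest susceptible pool next to the highest control pool. mt-Co1 over mt-Nd2 in susceptible pools was 1.49 times that in control pools (exact permutation p = 0.0238, adjusted p = 0.161). Resilient pools read 0.399 to 0.817 for mt-Nd1 over mt-Nd2, with the highest value of all pools in resilient pool 3. For mt-Co1 over mt-Nd2 they read 0.311 to 0.665. None of the 54 passed an adjusted p of 0.05, and 0.107 was the lowest value reached. mt-Nd4 and mt-Co1 are the members with the largest share of windows in a nuclear copy and mt-Nd2 has a small share, and the part of the copies in these ratios was not tested.

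Over the 14 pools, with group means taken off, members followed each other to different degrees. Pearson's r between messenger RNAs ranged from 0.32 (mt-Nd6 with mt-Co1) to 0.98 (mt-Nd2 with mt-Nd4), and between messenger and ribosomal RNAs from 0.31 (mt-Nd6 with mt-Rnr2) to 0.95 (mt-Nd1 with mt-Rnr2). All pairs share the library scaling. The messenger RNA mean had r = -0.79 with the ratio of effective size to reads, and -0.72 with recovered reads as library size. Among the nuclear genes closest to the messenger RNA mean were Nrep (r = 0.94), Atp1b1 (r = 0.92), a subunit of the sodium pump, Dbndd2 and 4931428F04Rik. Those closest to mt-Rnr2 were Impad1, Pnrc2, Sub1, Ndufa4, a cytochrome oxidase subunit, and Serinc1. The within-group SD of the members was 0.23 to 0.59 on the log2 scale, where the median gene had 0.28.

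Nuclear genes that serve mitochondrial DNA and RNA were counted from lists. Of 17 measured genes for transcription and replication of mitochondrial DNA, 5 were called higher and 1 lower in susceptible than in control BNST pools, where 18.9% of all genes were called. Polrmt, the mitochondrial RNA polymerase, read 4.91 to 5.70 in control and 5.59 to 6.39 in susceptible pools, with some overlap, and rose by a log2 difference of 0.63 (SE 0.17, limma adjusted p = 0.0462). Polg, the DNA polymerase of mitochondria, read 7.31 to 7.51 against 7.66 to 8.02, without overlap, and rose by 0.34 (SE 0.09, limma adjusted p = 0.0453). Mterf2, a factor that binds mitochondrial DNA, fell by 0.62 on the log2 scale (SE 0.17, limma adjusted p = 0.0490). Dna2, Ssbp1 and Top1mt, which unwind, coat and relax DNA, also passed the call rule as higher, but with adjusted p of 0.1001, 0.223 and 0.0736 in limma.

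Of 24 genes for processing and decay of mitochondrial RNA, 4 were called higher, Tbrg4, Elac2, Mtpap (the mitochondrial poly(A) polymerase) and Fastkd2, with log2 differences of 0.37, 0.34, 0.34 and 0.33, and Trmt10c, a part of the enzyme that cuts transfer RNAs from the precursor, was called lower at -0.49, a share near that of all genes. None of these 5 passed after adjustment, with adjusted p from 0.0541 to 0.228 in limma. Among 8 regulators of mitochondrial biogenesis, Gabpb1 was called higher (0.33) and Ppargc1a lower (-0.31). Of 82 nuclear-encoded respiratory chain subunits, 11 were called lower and 1 higher, Cox8a by -0.76 and Cox5a by -0.41, with a list median of -0.12, and of 78 mitochondrial ribosomal proteins 3 were called higher and 4 lower, both lists having a smaller share called than the 18.9% of all genes. Resilient against control pools gave 3 higher and 0 lower for transcription and replication (Polrmt, Polg and Mterf3), 2 and 0 for RNA processing (Tbrg4 and Mrm1), 0 and 0 for biogenesis, 3 and 4 for ribosomal proteins and 0 and 10 for respiratory subunits, where 17.7% of all genes were called, so that no list had a share clearly above it. Both comparisons share the control pools and are set side by side only. Susceptible against resilient pools gave 1 higher (Ssbp1) for transcription and replication and none for RNA processing or biogenesis. Ribosomal proteins had 2 higher and 3 lower and respiratory subunits 1 each way, where 2.14% of all genes were called.

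Transfer RNA genes were at the edge of detection. In BNST, 3 of 22 had a row, mt-Ti with 10 to 29 reads a pool, mt-Tm with 4 to 92 and mt-Tt with 4 to 15, and reads of such length can come from the neighboring messenger RNA or precursor. mt-Ti was called lower in susceptible than in control pools (-0.57, SE 0.26, limma adjusted p = 0.228) and mt-Tt lower in susceptible than in resilient pools (-1.43, SE 0.45, limma adjusted p = 0.9999), neither of which passed adjustment.

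In blood, none of the 9 members was called in any comparison within B6. In B6 resilient against control samples 2.11% of all genes were called, in B6 susceptible against control 4.5%, and in B6 susceptible against resilient 2.03%. No member had an unadjusted p under 0.05, and the lowest adjusted p in limma was 0.985, 0.980 and 0.9998 in these comparisons. The median log2 difference of the members was 0.27 in resilient and 0.23 in susceptible samples against the same controls, with 8 and 9 of 9 positive, and 0.002 between susceptible and resilient samples.

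Those medians were smaller than the spread between samples. mt-Co1, the most abundant messenger RNA, read 11.74, 12.19, 12.35, 12.12 and 12.00 in B6 controls 1 to 5, 13.22, 12.42, 12.16, 11.82 and 12.13 in resilient mice, and 13.07, 11.84, 12.55, 12.17 and 11.91 in susceptible mice. The groups overlapped throughout, and resilient samples 1 and 2 and susceptible samples 1 and 3 lay above all controls. The log2 difference was 0.23 for susceptible mice (SE 0.32, 95% interval -0.44 to 0.89), which is the range that 5 samples a group allowed. In mt-Nd1 the values were 8.62, 9.63, 9.71, 9.36 and 8.91 in controls and 10.72, 9.05, 9.62, 9.58 and 8.58 in susceptible mice, the highest and the lowest value both being in the susceptible group, with a difference of 0.26 (SE 0.38). The within-group SD of the members was 0.39 to 0.77 on the log2 scale against 0.36 for the median gene.

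mt-Rnr2 read 16.21, 15.84, 16.43, 16.58 and 16.11 in B6 controls, 16.95, 16.84, 16.56, 15.80 and 15.80 in resilient mice and 16.70, 16.00, 17.02, 16.10 and 16.48 in susceptible mice. The 3 higher resilient samples (1 to 3) lay near the highest control or above it and the other 2 below the lowest control. Effective library size over reads was 0.644, 0.650 and 0.813 in resilient samples 1 to 3, against 1.10 and 1.47 in samples 4 and 5. Both ribosomal RNAs together took 8.55, 7.97, 8.20, 6.58 and 8.78% of recovered reads in resilient samples 1 to 5. Samples 1 to 3 also carry another name prefix than samples 4 and 5. The mt-Rnr2 differences of 0.16 and 0.22 carried an SE of 0.88 from the mean-variance trend, which is set by few genes at such a high level. The exact permutation test, which uses no trend, gave p = 0.571 and 0.357. For platelets, which carry mitochondria but no nucleus, 6 of 8 markers were called higher in B6 susceptible than in control blood. Their summed level was 4781 to 8583 against 2118 to 6520 CPM, and 4.5% of all genes were called. No marker of the other blood cell types was called in that comparison, and the part of cell composition in the member values was not tested.

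In the D2 strain, none of the 9 members was called in susceptible against control samples, where 1.57% of all genes were, and none had an unadjusted p under 0.05 (lowest adjusted p in limma 0.9988). By the labels 8 of 9 members were slightly negative, with a median log2 difference of -0.07. mt-Nd6 was the exception: its log2 CPM was 5.01, 4.33, 4.12, 2.67 and 4.75 in D2 controls 1 to 5 and 5.01, 4.55, 4.63, 4.56 and 5.25 in D2 susceptible mice. D2 control 4 was far below the rest with 119 reads. The log2 difference was 0.62 (SE 0.35, limma p = 0.0909, exact permutation p = 0.159), and without D2 control 1 mt-Nd6 was called, at 0.83.

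The direction of the other messenger RNAs depended on the 2 disputed libraries. With both grouped by their column names, mt-Nd1 stood at 0.60 (SE 0.36, limma p = 0.109, exact permutation p = 0.143), mt-Cytb at 0.59 (SE 0.35), mt-Nd5 at 0.54, mt-Nd2 at 0.51, mt-Co1 at 0.34 and mt-Nd4 at 0.30, while mt-Rnr1 and mt-Rnr2 stood at -0.23 and -0.35. With both left out, the same messenger RNAs lay between 0.13 (mt-Nd4) and 0.36 (mt-Cytb) and the ribosomal RNAs at -0.19 and -0.29. mt-Nd6 was positive each way, with 0.53 and 0.72. No member was called under any of the groupings, although the number of genes called rose from 206 by labels to 890 by column names and 519 without both. For the 6 other messenger RNAs no direction can be given in D2.

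The test of whether the stress difference itself differed between strains called none of the 9 members, where 5.37% of all genes were called, and no member had an unadjusted p under 0.05 in limma. The median of the members was -0.30, and mt-Nd6 again had the opposite sign (0.59, SE 0.50). With column names, 6 of the 9 members were positive in this test and none was called. Of 8 platelet markers, 6 were called in this test, each with the lower stress difference in D2.

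**Figure D3:**
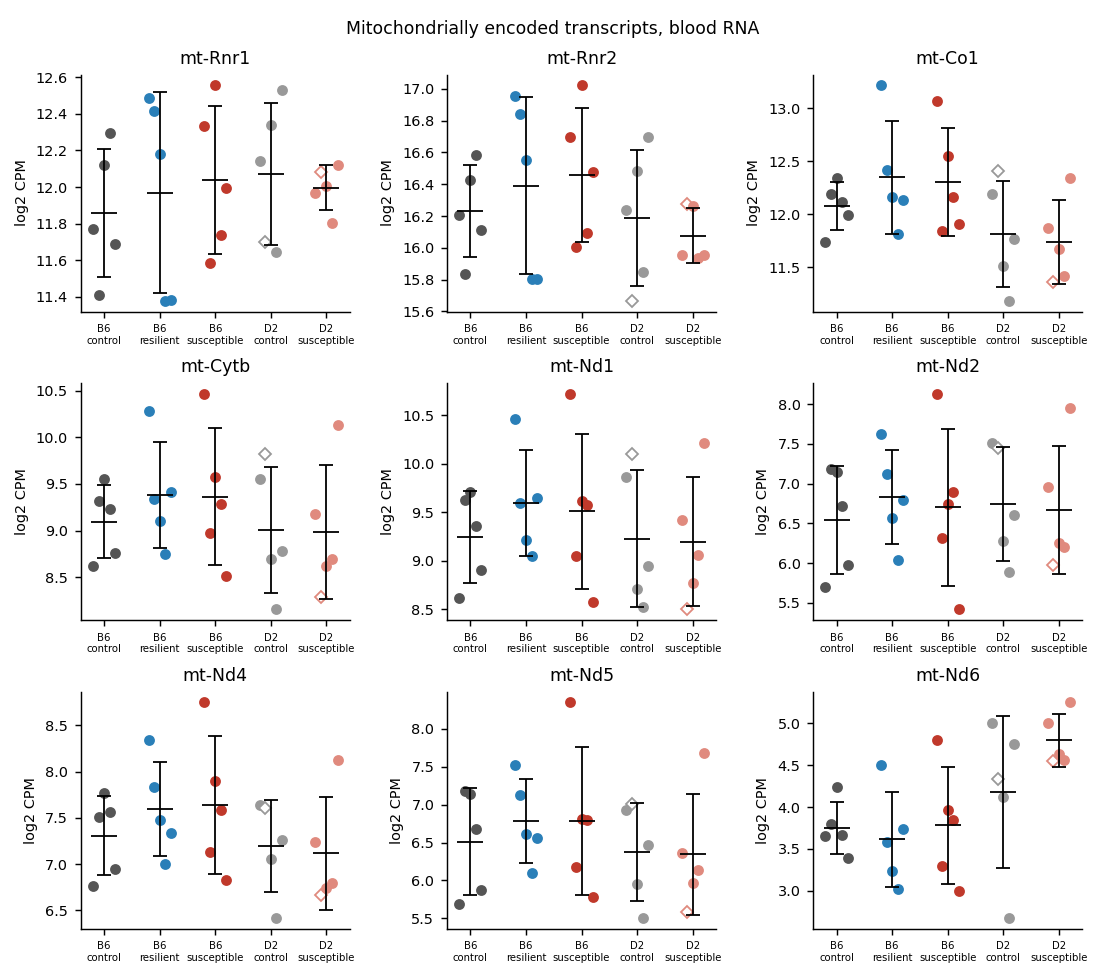
Log2 CPM (y axes) of the 9 mitochondrially encoded transcripts in blood of 5 groups of 5 samples (x axes). Points are samples, bars give the mean and 1 SD, and open diamonds mark the 2 D2 libraries on which labels and column names disagree. Groups overlap in all panels, and in most messenger RNA panels the diamonds lie near the top of D2 control and at the bottom of D2 susceptible.

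Strains were compared among controls, where 26.4% of all genes were called in D2 against B6 but none of the 9 members, all with an unadjusted p over 0.05. The lowest adjusted p in limma was 0.486, for mt-Nd6 with a log2 difference of 0.43 (SE 0.35). Without D2 control 4, mt-Nd6 was called, at 0.80. The deposited values gave mt-Rnr1 a difference of 0.21 (SE 0.29), and it was called higher in D2 under 3 other scalings, with 0.38 for all recovered reads as library size, 0.39 for the non-mitochondrial reads and 0.54 after quantile normalization. D2 reads had been aligned to the reference genome, which is of B6 origin, and the part of strain differences in mitochondrial sequence was not tested. B6 and D2 samples share no name prefix, so in all strain comparisons strain and what the prefixes stand for cannot be told apart.

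Ratios between members differed between strains more clearly than any level. The mt-Rnr2 to mt-Rnr1 ratio per length was 13.1, 12.9, 12.0, 11.8 and 12.97 in B6 controls 1 to 5 and 10.3, 9.45, 10.7, 11.1 and 10.9 in D2 controls 1 to 5. In susceptible mice it was 12.4, 12.9, 13.3, 12.4 and 13.5 in B6 and 9.56, 11.0, 11.5, 10.6 and 8.59 in D2. Each of the 10 D2 samples lay below each of the 10 B6 samples of these groups, and also below the 5 B6 resilient samples (12.5 to 13.4). Over both stress groups, which the disputed labels cannot affect, the log2 difference was -0.30 (permutation p = 1e-05 with 100000 resamples, the smallest they can give, adjusted to 0.00011 over 21 strain tests). The 21 strain tests were chosen after the values had been seen. By stress group the ratio in D2 was 0.835 times that in B6 among controls and 0.791 times among susceptible mice, with exact permutation p = 0.00794 each, adjusted to 0.107 over the 54 ratio tests, and leaving out any single sample gave 0.823 to 0.857 and 0.767 to 0.825. Neither ribosomal RNA passed a test by itself over both groups: mt-Rnr1 was 0.09 and mt-Rnr2 -0.21 in D2 relative to B6, with adjusted permutation p of 0.60 and 0.27. The part of ribosomal depletion in the mt-Rnr2 to mt-Rnr1 ratio was not tested.

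The minus-strand messenger RNA stood apart as well. The log2 CPM of mt-Nd6 minus the mean of the 6 plus-strand messenger RNAs was -4.20, -5.03, -4.71, -4.95 and -4.69 in B6 controls and -5.11, -4.95, -4.91, -4.87 and -4.85 in B6 susceptible mice. In D2 it was -3.94, -4.74, -3.91, -4.94 and -3.56 in controls and -3.50, -3.18, -3.38, -3.50 and -4.16 in susceptible mice. D2 controls 2 and 4 lay among the B6 values, and the other 8 D2 samples lay above all B6 samples. Over both stress groups the log2 difference between strains was 0.95 (permutation p = 0.00036, adjusted p = 0.0025). Among susceptible mice it was 1.40, a 2.63-fold difference without overlap (exact permutation p = 0.00794, adjusted p = 0.107), and among controls 0.50 with overlap (exact permutation p = 0.119). By column names, D2 control 2 with -4.74 would count as susceptible, and it lay close to the highest B6 susceptible sample with -4.85. Susceptible D2 and B6 samples do not overlap under either grouping, in this difference and in the mt-Rnr2 to mt-Rnr1 ratio. For mt-Nd6 alone, the strain difference over both groups was 0.72 (permutation p = 0.019, adjusted p = 0.057).

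Both minus-strand transfer RNAs with a row in blood can be set beside it. mt-Tq had 6, 7, 6, 10 and 10 reads in B6 controls and 0, 11, 3, 11 and 1 in B6 susceptible mice, against 37, 11, 35, 5 and 42 in D2 controls and 19, 26, 43, 46 and 37 in D2 susceptible mice. The same D2 controls 2 and 4 had the low values. The log2 difference was 2.18 over both groups (permutation p = 0.00079, adjusted p = 0.0041). The library with 0 reads allows up to 3 by counting error alone, so this difference on the log2 scale depends on the offset of 0.5 reads in the deposited values. In the strain-by-stress test mt-Tq was called with 1.96 (SE 0.91, limma adjusted p = 0.918). mt-Tp had 5 to 26 reads a library, and its D2 minus B6 difference was 0.56 (permutation p = 0.049, adjusted p = 0.11), and 0.89 among controls (limma adjusted p = 0.112). Of the plus-strand transfer RNAs, mt-Ti, mt-Tm and mt-Tt differed by -0.18, 0.56 and 0.54, with adjusted permutation p of 0.60, 0.13 and 0.34. mt-Tq overlaps the plus-strand mt-Ti by 3 bases at its 3′ end, shown in capitals. At 71 bases it is shorter than the 75-base reads of blood, and the strand setting for counting is not given. Reads of mt-Tq thus cannot be told apart from reads of precursor RNA across it, including antisense precursor.
mt-Tq, chrM:3772-3801, minus strand: taagtgtaggttcaattcctattgtccTAG
mt-Ti, chrM:3745-3774, plus strand: attatagaggttcaagccctcttatttCTA

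**Figure D4:**
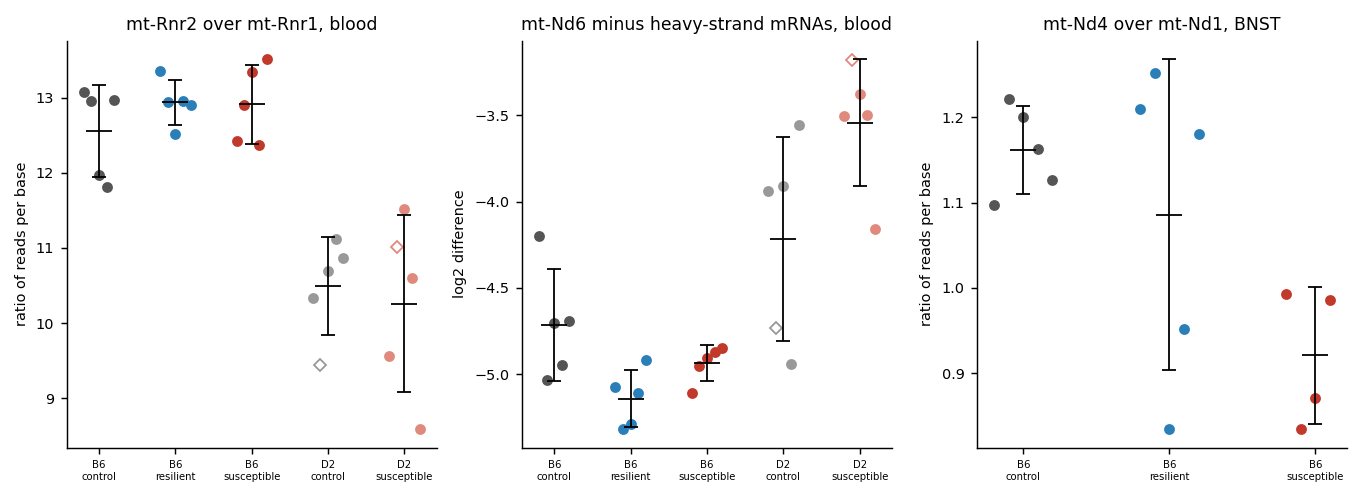
Ratios between members (y axes) by group (x axes): mt-Rnr2 over mt-Rnr1 per length in blood, mt-Nd6 minus the mean of the 6 plus-strand messenger RNAs (log2; titled heavy-strand mRNAs after their template strand) in blood, and mt-Nd4 over mt-Nd1 per length in BNST; points are samples, bars the mean and 1 SD, open diamonds the disputed D2 libraries. D2 samples lie below all B6 samples on the left (8.59 to 11.52 against 11.81 to 13.51), and BNST susceptible pools (0.835 to 0.993) lie below all control pools on the right (1.10 to 1.22).

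Other ratios differed less between the strains. Over both stress groups mt-Nd1 over mt-Nd2 was lower in D2 by a log2 difference of -0.25 (permutation p = 0.011, adjusted p = 0.046), with overlap, and mt-Co1 over mt-Nd2 by -0.50 (adjusted permutation p = 0.052). mt-Co1 itself was -0.42 lower in D2 (adjusted permutation p = 0.087). The remaining 5 plus-strand messenger RNAs differed between strains by -0.32 (mt-Nd4) to 0.08 (mt-Nd2), with adjusted permutation p of 0.34 to 0.80.

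Among the nuclear genes for mitochondrial RNA, Lrpprc, whose protein binds and stabilizes mitochondrial messenger RNAs, differed most between strains. Its log2 CPM was 5.31 to 5.99 in the 10 B6 control and susceptible samples and 3.89 to 4.46 in the 10 D2 samples, without overlap. D2 controls were lower than B6 controls by a log2 difference of -1.40 (SE 0.15, limma adjusted p = 1.0e-07), and stress groups of a strain did not differ beyond their spread (0.05 in B6 and 0.04 in D2, SE 0.15 each). Mrm3, which modifies mt-Rnr2, was the only other gene called of the 24 for RNA processing, at 0.40 (limma adjusted p = 0.170). Beside the lower Lrpprc, the plus-strand messenger RNAs had the small differences given above. Of 18 genes for transcription and replication only Mgme1 was called (0.53), and of 7 biogenesis regulators Gabpb1 (0.39, limma adjusted p = 0.0187) and Gabpb2 (0.31). Of 77 mitochondrial ribosomal proteins, 5 were called higher and 6 lower in D2, Mrpl32 (-1.33) and Mrps5 (0.59) among them, and of 79 respiratory subunits 10 were called higher and 9 lower, such as Cox7a2l (0.63) and Cox6a1 (-1.25), both lists having a smaller share called than the 26.4% of all genes. Marker genes also differed between the control groups: 6 of 8 platelet markers were higher in D2 (summed level 6287 to 15580 against 2118 to 6520 CPM), all 5 B cell markers lower, of 7 erythroid markers 1 higher and 4 lower, and of 6 T cell markers 3 higher. A marker each of neutrophils and monocytes was higher and 1 of NK cells lower. Their part in the member ratios was not tested.

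Within B6 blood, few genes of the same lists were called. In susceptible against control mice Top1mt (-0.88) and Trmt10c (-0.32) were called lower, 1 mitochondrial ribosomal protein and 2 respiratory subunits higher, and none passed adjustment. In resilient against control mice Supv3l1, a helicase of mitochondrial RNA decay, was called higher (0.27), with 3 ribosomal proteins higher, 1 lower, and 3 respiratory subunits higher. In D2 susceptible against control mice, 1 ribosomal protein was called in each direction and no gene of the other lists.

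In blood, the messenger RNAs formed a tight set of their own that the ribosomal RNAs did not join. Over 25 samples, with group means taken off, r between messenger RNAs ranged from 0.80 (mt-Nd1 with mt-Nd6) to 0.98 (mt-Nd1 with mt-Cytb), with a median of 0.94. mt-Rnr1 and mt-Rnr2 had r = 0.97 with each other, but r between messenger and ribosomal RNAs was only 0.08 to 0.52. These are descriptions over samples that share a library scaling. That scaling bears on the ribosomal side: mt-Rnr2 had r = -0.89 with the ratio of effective library size to reads (0.644 to 1.54 in blood), and -0.11 once recovered reads served as library size, whereas the messenger RNA mean had 0.06 and 0.52. With recovered reads, r between the messenger RNA mean and mt-Rnr2 was 0.49, against 0.24 on the deposited scale.

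The nuclear genes whose values followed the mitochondrial messenger RNA mean in blood were extracellular matrix genes: Hspg2 (perlecan, r = 0.90), Aspn (asporin), Col4a2, Col4a1 and Col5a1, the collagens of basement membranes and fibrils, with r of 0.88 to 0.90. They are low in these libraries, Hspg2 at a mean log2 CPM of 1.74 and Col4a1 at 2.44. Leaving out the 2 samples farthest from the median left r at 0.89 for Hspg2 and 0.85 for Col4a1, and recovered reads as library size gave 0.92 and 0.91. Their r with mt-Rnr2 was 0.15 and 0.22 on the deposited scale, and 0.45 and 0.41 with recovered reads. The genes nearest to mt-Rnr2 were Rab6a, Fth1 (ferritin heavy chain), 1810058I24Rik, Ndufa4 and Smdt1, a part of the mitochondrial calcium uniporter, with r of 0.92 each. Ndufa4 was thus among the 5 nearest to mt-Rnr2 in both tissues on the deposited scale. On that scale mt-Rnr2 in blood had r = -0.89 with the ratio of effective library size to reads. The ranking was not repeated with recovered reads, and the part of library scaling in it was not tested. What the samples with high collagen and high mitochondrial messenger RNA values have in common was not tested.

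**Figure D5:**
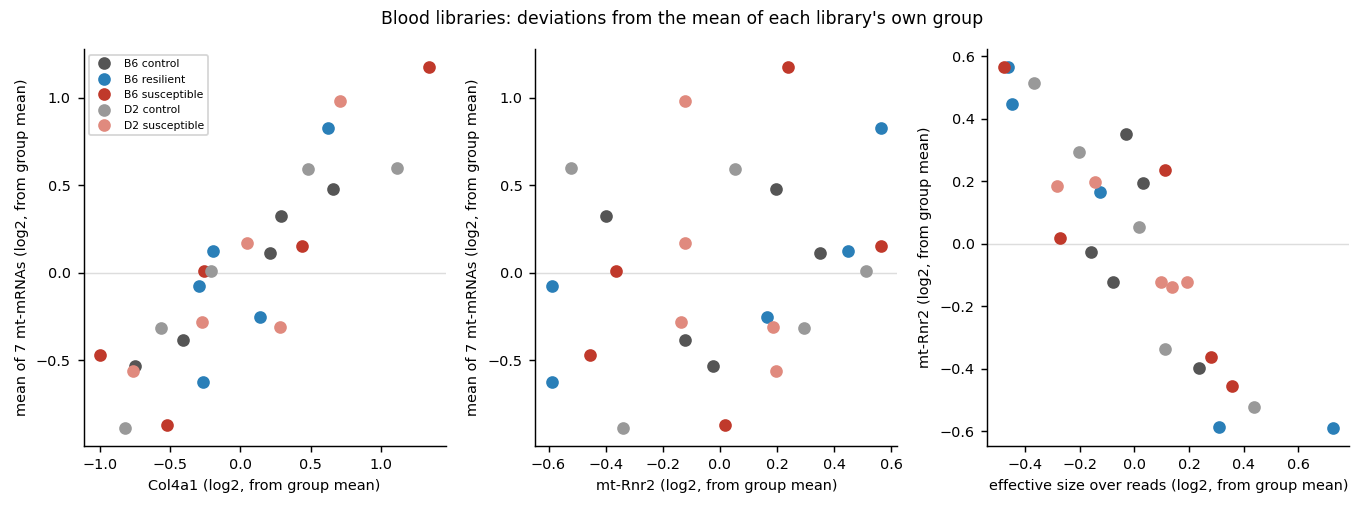
Deviations from the group mean in 25 blood samples (log2 scale): the mean of the 7 mitochondrial messenger RNAs (y axis) against Col4a1 and against mt-Rnr2 (x axes), and mt-Rnr2 (y axis) against the ratio of effective library size to reads (x axis); colors mark the 5 groups. The messenger RNAs rise with Col4a1 (r = 0.88) and scatter against mt-Rnr2 (r = 0.24), and mt-Rnr2 declines with the library scaling (r = -0.89).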

How the data were processed

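AGO2-bound poly(A) RNA of BNST pools and rRNA- and globin-depleted total RNA of blood were sequenced single-end. Per the methods of the study, the authors aligned the reads to mouse build GRCm38 with STAR, counted them on exons with HTSeq, removed genes of low CPM and used voom. The methods also name a ComBat adjustment of the AGO2 data for experimental cohort. The deposited BNST values still gave whole reads, so they do not carry that adjustment, the labels give no cohort of a pool, and the BNST differences are not adjusted for cohort. The deposited values are log2 CPM with an offset of 0.5 reads. The microRNA tables were not used here.

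Whole reads were recovered from every deposited value (tolerance 0.0001). Symbols matched 16535 of 16587 gene identifiers in BNST and 13054 of 13084 in blood. Differences were fitted to the deposited values of all groups of a table in limma 3.58.1 (R 4.3.3) with empirical Bayes and a mean-variance trend, and Benjamini-Hochberg adjustment ran over all genes of the table. A gene was called at an unadjusted p under 0.05 with a fold change of at least 1.2. The test was checked on simulated data. Exact permutation tests were two-sided over samples (scipy 1.17.1), and the 54 ratio tests and the 21 strain tests were each adjusted as a family. Nuclear copies were counted as windows of 84 or 75 bases of the mitochondrial genes with an identical match elsewhere in GRCm38, and all printed sequences come from that build.

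The members and gene lists were chosen with earlier results of these data known. Named were the 9 members, the 5 genes with the highest correlation to the messenger RNA mean and to mt-Rnr2, and called genes of the lists; 1 gene that this rule names is not reported here. Alternatives were other scalings, weights, filters and groupings, and leaving out each sample. The lists with few called genes are named in full, which was decided after their values were seen. Depths and shares are whole-table counts, and their intervals cover counting error only.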

Additional observations from a re-analysis of the deposited data

Results flagged for a closer look

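Of 136 groups of 4 or 5 samples tested for a sample far from the others, 2 had one, where chance alone flags about 1 in 20 groups. The mt-Rnr2 to mt-Rnr1 ratio per length was highest in BNST B6 control pool 1, at 0.6682, with the nearest of the other 4 control pools at 0.630. The share of reads on the members was lowest in the blood sample D2 control 4, at 8.015%, with the nearest of the other D2 controls at 9.72%. The same sample had the lowest mt-Nd6 level of its group, with 119 reads.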

How the results depend on the processing

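The number of members called kept its value within 1.5 times under most alternatives, and no member changed direction once called. The mt-Nd2 call in susceptible against control pools was lost without the mean-variance trend, without low genes and after quantile normalization. Recovered or non-mitochondrial reads as library size and the replicate block lost it too. The mt-Cytb call in susceptible against resilient pools was lost under these except the filter of low genes, and with only the compared groups fitted. Quantile normalization gave 1 call in BNST resilient against control pools (0 as deposited), 2 in susceptible against resilient pools (4 as deposited) and 1 in D2 against B6 controls. All recovered reads and the non-mitochondrial reads as library size also gave 1 call in D2 against B6 controls (0 as deposited), in each case mt-Rnr1, and the cause was not tested. With each sample left out in turn, the number called ranged from 1 to 5 in BNST susceptible against control pools, from 0 to 8 in susceptible against resilient pools, from 0 to 1 in D2 susceptible against control blood and from 0 to 1 in D2 against B6 controls. Of 1737 values of single members under an alternative, 1680 stayed on their side of the call rule, 24 passed it newly and 33 no longer passed. With sample weights, mt-Cytb passed newly in susceptible against control pools, and mt-Nd2 and mt-Nd6 in susceptible against resilient pools. With only the compared groups fitted, mt-Nd6 passed newly in susceptible against control pools.

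Replicate numbers do not pair the BNST pools: the deviations of pools with the same number had mean correlations of -0.06 to 0.01. With the replicate block, 0, 2 and 3 members were called in resilient against control, susceptible against control and susceptible against resilient pools, and 2737, 2937 and 291 genes in all. The prefix of the blood sample names as a covariate left 0 members called within strains; it was not run between strains, which it separates. Grouping the 2 disputed D2 libraries by column name or leaving them out called no member, but raised the genes called in D2 susceptible against control blood from 206 to 890 and 519. The interaction of strain and stress went from 703 to 1321 and 1070 genes. Ratios between members, and the relations on the scale of recovered reads, were added after seeing the data. Depth limited mainly mt-Nd6 in blood (75 to 529 reads) and the transfer RNAs.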
